A study of Mus musculus with 2 samples.

Results

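The genes described here are the SR protein and hnRNP genes of the mouse, taken as every protein-coding gene of the GENCODE M21 annotation whose symbol starts with Srsf or Hnrnp. They number 31 of 21911 protein-coding genes, with 11 Srsf and 20 Hnrnp genes. Binding of EP300 was measured by ChIP-seq, the sequencing of DNA recovered with an antibody against a chromatin protein, in whole stomach of newborn B6NCrl mice (age 0 days). The series holds 2 libraries of 1 group, labelled as biological replicates 1 and 2. Their biosample and donor labels are identical, so how far animals differ may not show in them, and the sex was not collected. There is no other tissue, stage, genotype or treatment, and no test between groups of samples is possible.

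SR proteins and hnRNPs are RNA-binding proteins that steer the choice of splice sites. SR proteins carry an arginine- and serine-rich domain, bind mostly exonic enhancers and help the spliceosome to define exons, whereas many hnRNPs coat nascent transcripts and act as silencers of exons. Both families also take part in export, stability and translation of messenger RNA, and nearly all tissues use them. EP300 is a co-activator that transcription factors bring to active promoters and enhancers, where it acetylates histones.

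Sequencing depth is unknown, as the peak lists hold no read counts. The optimal set, kept by the authors for reproducibility between replicates (irreproducible discovery rate, IDR), holds 7737 peaks, and 3 longer lists, for each replicate and for the pooled reads, hold 300000 each. Peak strength is given as the signal that the authors' caller assigned; its scale differs from list to list, and ranks are therefore given beside it. Of 8 smooth muscle marker genes, 7 had an optimal summit within 50 kb of their start, against 4 of 10 markers of stomach epithelium and 1 of 6 markers of other organs; over all protein-coding genes the share was 34.9%, close to that of the epithelial markers. Among the epithelial markers, Gkn1, Gkn2, Tff2 and Krt13 had a summit, and Tff1, Cldn18, Atp4a, Atp4b, Gata4 and Sox2 had none. In whole tissue, binding in few cells and weak binding in many cells cannot be told apart.

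A start summit here is an optimal summit within 1 kb of the start of the gene record. Sequences are printed for 2 sets of these, chosen by motif and by strength. The first set holds the 5 genes whose strongest start summit had the 7-letter motif TCTCGCG, the core of a promoter element linked to the zinc-finger protein Kaiso (ZBTB33), within 100 bp on either strand. Each line gives 30 bases of mm10 on the strand of the gene, with every match in capitals; at Hnrnpk and Srsf10 matches on both strands overlap and form a palindrome.
Hnrnpk, chr13:58402535-58402564, minus strand: ccgctgaagTCTCGCGAGAggtctgtcact
Srsf10, chr4:135856075-135856104, plus strand: cgggagccaagTCTCGCGAGAagaggcagt
Hnrnph3, chr10:63023962-63023991, minus strand: tcactcaagtatCGCGAGAgcagcgcggca
Srsf5, chr12:80946145-80946174, plus strand: ggtggtggcgtCGCGAGAttccggcttgtg
Srsf4, chr4:131873449-131873478, plus strand: cacggcgagctCGCGAGAggacgtgctgca

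The second set holds 61 bases centred on the summit for the other genes among the 10 strongest whose window carries at most 30 annotated UTR bases. Capitals mark CCAAT (the NF-Y box) at Hnrnpc and Hnrnpll, the TATA box TATAAA at Hnrnpab, the letters ANATGGC (the core of the YY1 motif) at Srsf3 and Hnrnpa2b1, and GGGCGGG (KLF and SP factors) and TGANTCA (AP-1) at Srsf2, each on either strand. At Hnrnpll 2 CCAAT matches on opposite strands overlap.
Hnrnpc, chr14:52104086-52104146, minus strand: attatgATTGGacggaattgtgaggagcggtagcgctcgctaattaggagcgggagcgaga
Hnrnpll, chr17:80062384-80062444, minus strand: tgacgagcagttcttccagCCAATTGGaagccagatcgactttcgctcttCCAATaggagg
Hnrnpab, chr11:51606859-51606919, minus strand: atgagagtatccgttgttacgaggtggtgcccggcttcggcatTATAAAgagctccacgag
Srsf3, chr17:29032869-29032929, plus strand: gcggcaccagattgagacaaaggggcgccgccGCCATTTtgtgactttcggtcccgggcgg
Hnrnpa2b1, chr6:51469224-51469284, minus strand: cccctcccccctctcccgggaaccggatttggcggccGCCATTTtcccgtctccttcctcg
Srsf2, chr11:116853749-116853809, minus strand: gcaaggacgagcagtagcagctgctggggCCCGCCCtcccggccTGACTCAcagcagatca

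An EP300 summit at the start was more frequent in these genes than over the whole annotation. Of the 31 genes, 20 had an optimal summit within 1 kb of their start (64.5%, exact 95% binomial interval 45.4 to 80.8); the background over all protein-coding genes was 10.1%. In the conservative IDR set the count was 18 of 31, with 5 of 11 Srsf genes and 13 of 20 Hnrnp genes. There the background was 9.92%. The 2 sets overlap only in part, with 4739 of the 7737 optimal peaks also among the 6974 conservative peaks. Hnrnpa0, Hnrnpdl, Srsf4 and Srsf5 had an optimal start summit but no conservative summit within 50 kb. The 18 genes therefore include some outside the 20. In the optimal set the count was 6 of 11 Srsf genes (54.5%, interval 23.4 to 83.3) and 14 of 20 Hnrnp genes (70%, interval 45.7 to 88.1), and these intervals overlap widely. At least 2 start summits were listed for 8 of the 31 genes (25.8%), against 3.42% of all genes. Among genes with a start summit only, the counts were 8 of 20 and 750 of 2213. Overlapping peaks count as separate summits here, as at Hnrnph3, Hnrnpr and Hnrnpdl. No test was made of the gene list against other genes, and the intervals cover counting error only.

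Within the gene body 15 of the 31 genes had a summit (48.4%, interval 30.2 to 66.9), against 12.1% over the whole annotation. Nearly all of these lay close to the start: beyond the first 1 kb of the body a summit was found in 2 of 31 genes (6.45%, interval 0.791 to 21.4), against 7.57% of all genes, so the body past the start was near the background. Among the 14628 protein-coding genes of the same length range as the families (2678 to 48506 bp) that share was 4.55%. Within 50 kb of the start 24 of 31 genes had a summit (77.4%, interval 58.9 to 90.4), against 34.9% of all genes. This window includes the 1 kb around the start, so the 24 include all 20 genes with a start summit. Counting only summits that lay nearest to the gene's own start, the count was 21 of 31 (67.7%), against 16.4% of all genes.

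**Figure D1:**
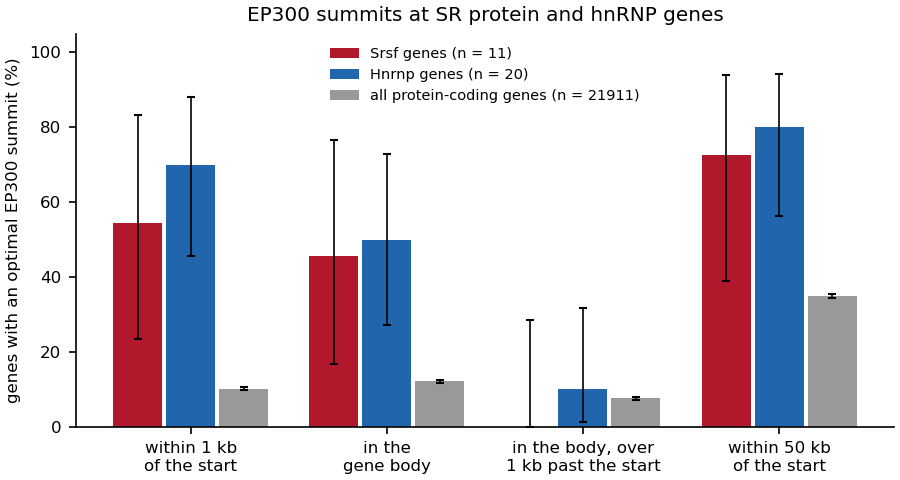
Bars give the percent of genes with an optimal EP300 summit in 4 windows for Srsf genes, Hnrnp genes and all protein-coding genes. Error bars are exact 95% binomial intervals, and the 50 kb window includes the 1 kb window. Both families stand above all genes within 1 kb, in the body and within 50 kb, while in the body over 1 kb past the start the Srsf bar is at 0, the Hnrnp bar at 10% and that of all genes at 7.57%.

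The strongest start summit of either family lay at Hnrnpk, which encodes a poly(C)-binding hnRNP. It had a signal of 160.3 in the optimal set (rank 91), of 91.9 in replicate 1 (rank 64) and of 70.1 in replicate 2 (rank 120). The peak (chromosome 13, 58402454 to 58402673, on a UTR exon) was 220 bp wide, and its summit lay 799 bp past the start of the gene record but 28 bp upstream of another coding transcript start of Hnrnpk. The start of the neighbouring gene Rmi1 was nearer than that of the Hnrnpk record. Second came Srsf10, an SR protein known as a repressor that is activated by dephosphorylation, with a signal of 123.4 (rank 144) in the optimal set, 79.8 in replicate 1 (rank 93) and 49.0 in replicate 2 (rank 231). Its peak (chromosome 4, 135855907 to 135856192) was 286 bp wide, with the summit on a UTR exon 319 bp past the start. These 2 peaks were the only ones of the 66 summits within 50 kb of the families that were narrower than the full width of 560 bp, and both hold the palindrome printed above.

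Among the Hnrnp genes, Hnrnpc, whose product binds uridine tracts in nascent transcripts, followed with a signal of 75.8 in the optimal set (chromosome 14, 52103836 to 52104395, 88 bp upstream of the start). The replicate values were 48.2 (rank 229 of replicate 1) and 29.3 (rank 757 of replicate 2). Hnrnpll, a regulator of splicing in lymphocytes, had 56.6 in the optimal set, 25.8 in replicate 1 and 27.2 in replicate 2, with the summit 80 bp upstream of the start (chromosome 17, 80062134 to 80062693). Both windows hold the CCAAT box shown above. Hnrnpab had 53.3 in the optimal set, 28.9 in replicate 1 and 20.7 in replicate 2, with the summit 42 bp upstream (chromosome 11, 51606609 to 51607168). These 3 summits were intergenic and in the conservative IDR set.

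Hnrnpa2b1, which encodes an hnRNP also known as a reader of N6-methyladenosine, had 3 start summits. The strongest lay 640 bp past the start, in an intron (chromosome 6, 51468974 to 51469533), with 47.9 in the optimal set, 26.4 in replicate 1 and 22.3 in replicate 2. A second one, 157 bp upstream, had 38.8 in the optimal set and 40.5 in replicate 2 (rank 333), and no peak of replicate 1 had its summit inside it. The third, 288 bp past the start, had 18.0 in the optimal set and 8.78 in replicate 1 (rank 38670), and no peak of replicate 2. In replicate 2 the upstream peak was thus the stronger of its 2, and in replicate 1 the one at 640 bp. Hnrnph3 had 2 overlapping start peaks, the stronger with 47.2 in the optimal set, 36.5 in replicate 1 and 22.2 in replicate 2 (chromosome 10, 63023685 to 63024244, in an intron 252 bp past the start). Its paralog Hnrnph1, which binds G tracts, had 36.0, 20.8 and 16.3 in the optimal set, replicate 1 and replicate 2, and the other paralog, Hnrnph2 on the X chromosome, had no optimal summit within 50 kb.

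The other SR protein genes with a start summit had signals between 27.4 and 49.8 in the optimal set. Srsf7, a splicing and export factor, had 49.8 in the optimal set, 21.9 in replicate 1 and 27.8 in replicate 2, at a summit 31 bp past the start (chromosome 17, 80206996 to 80207555, UTR exon). Srsf3, the smallest SR protein, had 49.5, 31.7 and 20.9 in the same order, in an intron 271 bp past the start (chromosome 17, 29032619 to 29033178). Srsf2, which binds exonic enhancers, had 43.6, 27.4 and 24.5, 685 bp upstream of the start (chromosome 11, 116853499 to 116854058). The order of these 3 genes differed between the replicates: Srsf3 was the highest of them in replicate 1 and the lowest in replicate 2. Srsf5 had 32.7 in the optimal set, 17.3 in replicate 1 and 8.65 in replicate 2. Srsf4 had 27.4, 15.6 and 8.65 in the same order. By rank both were far stronger in replicate 1 (4407 and 5949) than in replicate 2 (34252 and 34255).

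The other 7 Hnrnp genes with a start summit had weaker or less even values. Hnrnpul2 (32.8 in the optimal set), Hnrnpa0 (25.4) and Hnrnpu (21.6) had a peak of replicate 2 inside the strongest start peak and none of replicate 1, while Hnrnpa3 (17.4) had one of replicate 1 and none of replicate 2. Elsewhere within 1 kb of the start, replicate 1 had a peak at Hnrnpul2 (16.6, rank 5020) and Hnrnpu (14.7, rank 7120) but none at Hnrnpa0. Replicate 2 had one at Hnrnpa3 (15.9, rank 4759). The start summit of Hnrnpul2 was nearest to the start of Ttc9c. Hnrnpdl had 31.1 in the optimal set, 24.5 in replicate 1 (rank 1552) and 7.30 in replicate 2 (rank 67491). Hnrnpr had 32.1, 21.7 and 23.3, at a summit 10 bp past the start. Hnrnpa1, an antagonist of SR proteins at exons, had 3 start summits in overlapping peaks. The strongest had 32.2 in the optimal set, 11.5 in replicate 1 and 25.8 in replicate 2. It lay nearer to the start of Cbx5, its divergent neighbour. The summit 245 bp upstream (26.7 in the optimal set) was nearest to Hnrnpa1 itself. The strongest start peak of replicate 1 had 34.2 (rank 567) and lay elsewhere, 106 bp past the start of Hnrnpa1.

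**Figure D2:**
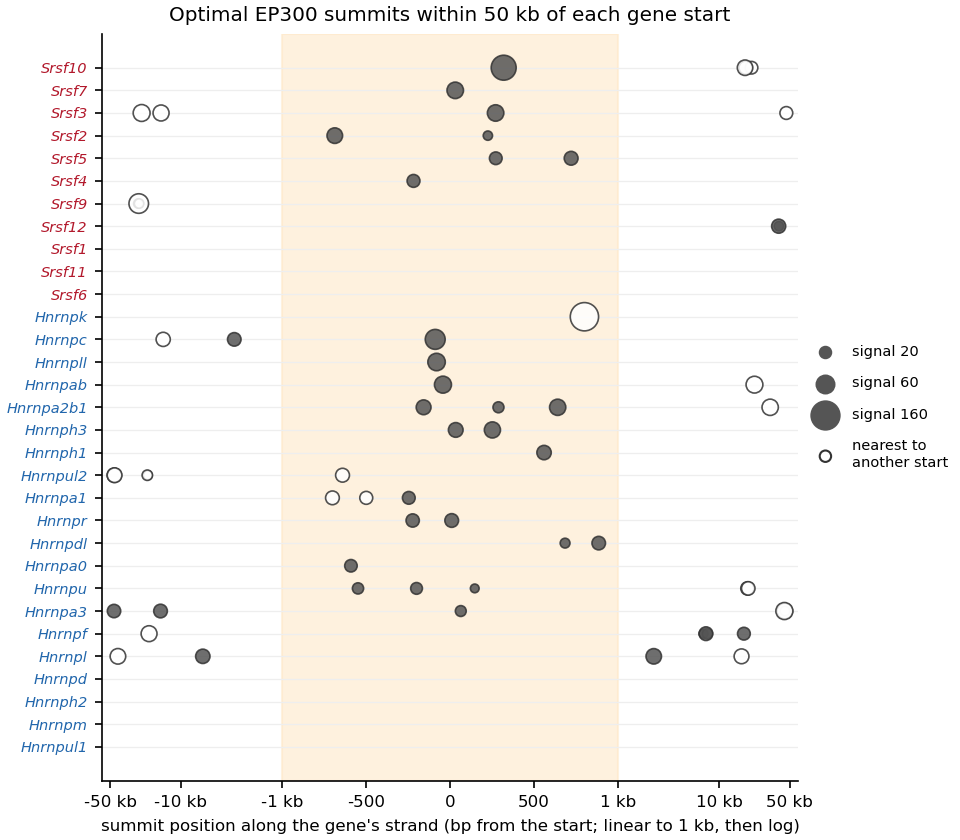
Each circle is an optimal EP300 summit within 50 kb of the start of an Srsf gene (red names) or an Hnrnp gene (blue names), placed by its distance from the start along the gene's strand, with the area growing with the signal in the optimal set and open circles for summits nearest to the start of another gene. The summits crowd into the shaded 1 kb on each side of the start in 20 genes, with the largest circles at Hnrnpk and Srsf10, and 7 genes have none.

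Over the 20 genes with a start summit, the strongest one per gene had a median signal of 39.8 (quartiles 31.8 and 50.7, range 17.4 to 160.3), against a median of 37.7 (quartiles 29.0 and 55.8) for the 2213 protein-coding genes with a start summit. The start summits of the families were thus frequent but of ordinary strength. The medians were 46.6 for 6 Srsf genes and 34.4 for 14 Hnrnp genes, with the ranges 27.4 to 123.4 and 17.4 to 160.3 overlapping. The summit lay past the start in 11 of the 20 genes and upstream in 9. Its median distance from the start of the gene record, in either direction, was 295 bp, against 156 bp for all genes with a start summit. Measured to the nearest coding transcript start of the same gene, 9 of the 20 summits lay within 100 bp and 6 over 500 bp away. Of all 31 distinct start summits, 12 were intergenic, 8 in introns, 7 on UTR exons and 4 on coding exons.

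The replicates were compared by the rank of the strongest peak within 1 kb of each start in each replicate's own list. In both lists the list's own strongest peak was among its strongest 7737 for 17 of the 31 genes (54.8%), against 6.96% of all protein-coding genes. The peaks of the replicates need not share a site, so this count does not show agreement on the site. Among these 17, Hnrnpa1, Hnrnpa2b1, Hnrnpa3, Hnrnpr and Hnrnpul2 had that of replicate 1 past the start and that of replicate 2 upstream. At Hnrnpa1 the distances were 106 and -681 bp, negative being upstream, and at Hnrnpr 13 and -245 bp. Srsf7 had the reverse order, at -33 and 99 bp. These 17 comprise 15 genes with an optimal start summit and also Srsf1 and Hnrnpl, which have none. The other 5 genes with an optimal start summit were Srsf4, Srsf5, Hnrnpa0, Hnrnpdl and Hnrnpu. Of the 20 strongest start summits, 16 held a peak of both replicates, and 14 were listed with the same interval in the conservative set. Across the 21 distinct start summits with a peak of both replicates, log2 signals had a Pearson correlation of 0.573 and signals a Spearman correlation of 0.516. This is a description: overlapping peaks share a replicate peak, and the lists differ in scale.

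**Figure D3:**
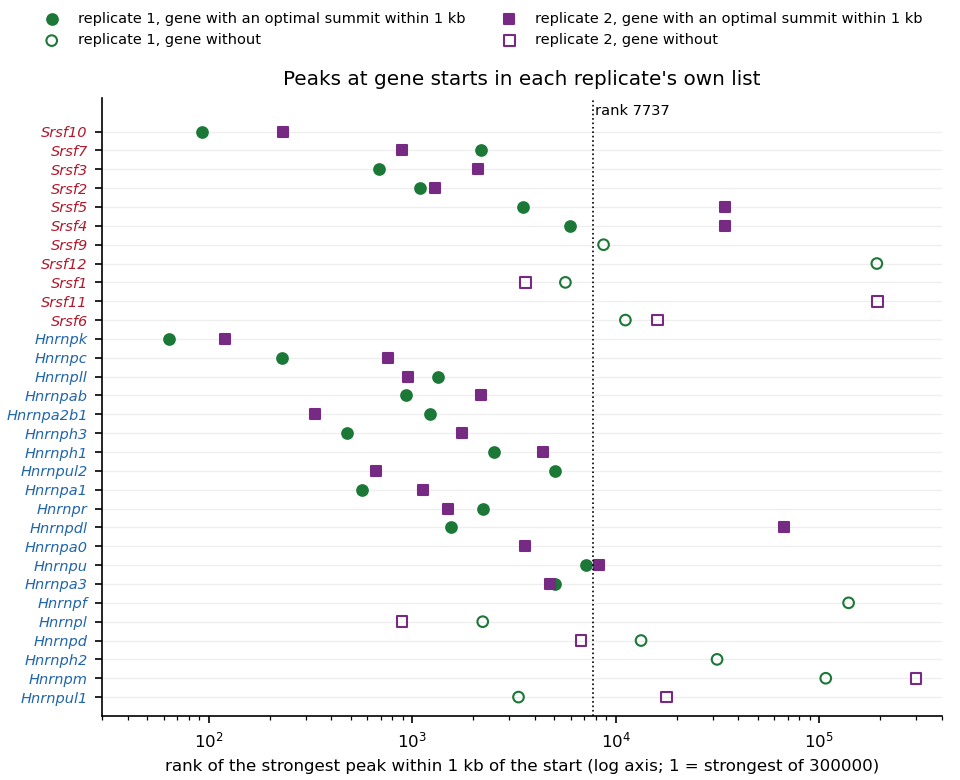
For each gene the rank of each replicate's strongest peak within 1 kb of the start is shown on a log axis, as circles for replicate 1 and squares for replicate 2. Marks are filled where the gene has an optimal start summit and open where it has not. Both marks of a gene can stand for peaks at different sites. Srsf10 and Hnrnpk stand at the left in both replicates, 5 genes with filled marks have one past rank 7737 or missing (dotted line), and Srsf1 and Hnrnpl have both open marks to the left of it.

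Of the 11 genes without a start summit, 7 had no optimal summit within 50 kb either, namely Srsf1, Srsf6, Srsf11, Hnrnpd, Hnrnph2, Hnrnpm and Hnrnpul1. The conservative set did list summits within 50 kb for some of them, with 3 at Hnrnpul1, 1 at Srsf1 and 1 at Hnrnpd. It listed none for Srsf6, Srsf11, Hnrnph2 and Hnrnpm. The replicate lists show that these genes were not alike. Srsf1, the founding member of the SR family, had a start peak of 15.9 in replicate 1 (rank 5660) and of 17.5 in replicate 2 (rank 3614), and one of 32.5 in the pooled list (rank 3494). Hnrnpul1 had 18.9 (rank 3329) in replicate 1 and 10.3 (rank 17825) in replicate 2, and Srsf6 had 12.6 (rank 11159) and 10.6 (rank 16104). Hnrnpd, which binds AU-rich elements, had 11.9 (rank 13322) in replicate 1 and 14.0 (rank 6748) in replicate 2. Hnrnpm had far weaker start peaks, with 6.67 in replicate 1 (rank 107716) and 4.54 in replicate 2 (rank 299529, near the end of the list). Srsf11 had no start peak in replicate 1, and Hnrnph2 had none in replicate 2. The background is broad here: 44.6% of all protein-coding genes had a peak of replicate 1 within 1 kb, and 39.7% one of replicate 2, against 29 and 27 of the 31 genes.

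The other 4 genes had summits away from the start of the gene record. Hnrnpf, a paralog of Hnrnph1 that binds G tracts, had 4 summits in its body, at 6991, 7398, 7644 and 17580 bp past the start. All were intronic, with signals in the optimal set of 9.56, 32.0, 14.2 and 26.7. The summits at 6991, 7398 and 17580 bp lay 466, 873 and 601 bp from another coding transcript start of Hnrnpf. Those at 7398 and 7644 bp shared a peak of 5.07 in replicate 1 (rank 258903) and of 18.9 in replicate 2 (rank 2851). The summit at 6991 bp had no peak of replicate 2. None of the 4 was listed with the same interval in the conservative set. The strongest summit within 50 kb of Hnrnpf, with 45.6, lay 20661 bp upstream and was nearest to Zfp239. Hnrnpl, which binds CA repeats, had a summit on a UTR exon 2248 bp past the start and 101 bp from another coding transcript start, with 42.8 in the optimal set, 27.1 in replicate 1 and 18.2 in replicate 2 (chromosome 7, 28810509 to 28811068). With any coding transcript start in place of the start of the gene record, 22 of the 31 genes had a start summit, against 11.2% of all genes. Srsf12, known from testis and brain, had 2 summits about 39 kb past its start, the stronger with 34.1 in the optimal set, 17.7 in replicate 1 and 14.6 in replicate 2. Both lay beyond the end of the Srsf12 gene record, the stronger in an intron and the other on a coding exon of another gene. The start of Srsf12 was still the nearest coding gene start. Srsf9 had 3 summits about 26 kb upstream, all nearest to the start of Dynll1, the strongest with 72.7 in the optimal set, 36.9 in replicate 1 and 35.7 in replicate 2.

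Summits farther out were often nearer to other genes. Of the 66 distinct summits within 50 kb, 31 lay within 1 kb of a start, 6 between 1 and 10 kb and 29 beyond 10 kb, and 28 were nearest to the start of a gene outside the families. The summits over 1 kb from the start had a median signal of 32.0 (range 9.56 to 72.7), close to the 32.2 of all start summits (range 8.72 to 160.3). The 2 upstream summits of Srsf3, with 52.5 and 46.4 in the optimal set, were nearest to Stk38, and the 1 downstream was nearest to Cdkn1a. Hnrnpa3 had 6 summits, of which the 3 about 44 kb downstream (up to 53.6 in the optimal set) were nearest to Nfe2l2, and 2 upstream ones (31.7 at 15905 bp and 30.1 at 45962 bp) were nearest to Hnrnpa3 itself. No summit was shared between genes of the families.

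A divergent coding start within 1 kb upstream was annotated for 9 of the 31 genes (29.0%), against 6.75% of all protein-coding genes. Among them are Hnrnpa1 with Cbx5 (616 bp apart) and Hnrnpa2b1 with Cbx3 (466 bp apart); Cbx3 and Cbx5 encode heterochromatin protein 1 family members. The other pairs were Hnrnpd with 4930524J08Rik, Hnrnpdl with Enoph1, Hnrnph2 with Gla, Hnrnph3 with Pbld2, Hnrnpul2 with Ttc9c, Srsf7 with Ttc39d and Srsf11 with Lrrc40. Start summits were found in 6 of the 9 genes with such a partner and in 14 of the 22 without (63.6%). Partners were sought only upstream of the start of the gene record. Hnrnpk thus counts as having none, although its start summit was nearest to the start of Rmi1. Over all protein-coding genes the shares were 27.5% with a partner and 8.84% without. With 9 genes in one class the families' shares are imprecise, and their difference was not tested.

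Of 11 motifs searched in the 20 windows within 100 bp of the strongest start summit, CCAAT was the most frequent, in 8 windows (40.0%, interval 19.1 to 63.9), against 26.1% of the start summits of all protein-coding genes. GGGCGGG was in 6 windows (30%), against 25.7%. Around the starts, CCAAT and GGGCGGG were each at 14 of the 31 genes (45.2%, interval 27.3 to 64.0), against 28.2% and 28.0% of all protein-coding genes. TCTCGCG was in 5 windows (25%, interval 8.66 to 49.1), against 16.7% of the start summits of all genes; within 50 bp of the summit it was in 3 windows (15.0%), against 14.1%. Over all genes, with the strongest start summit of each gene, the summit held TCTCGCG for 122 of 149 genes where it was narrow (81.9%). It did so for 247 of 2064 genes where it had the full width (12.0%). In these and the other shares of start summits, a summit shared by neighbouring genes counts for each of them. Both narrow start summits of the families, at Hnrnpk and Srsf10, held it. The ETS motif CCGGAAG was in 1 of the 20 windows (5.0%), at Srsf4, against 15.4% of the start summits of all genes. TGACGT of the cyclic AMP response element was in none (interval 0 to 16.8), against 8.0%. Around the starts of all 31 genes the order was the other way: CCGGAAG was at 4 (12.9%, interval 3.63 to 29.8), against 9.58% of the starts of all protein-coding genes, and TGACGT at 5 (16.1%, interval 5.45 to 33.7), against 6.70%. TCTCGCG was at 1 of the 31 starts (3.23%), against 2.79%.

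The remaining motifs were in 1 or 2 of the 20 windows each: GCGCATG of NRF1 and the E-box CACGTG in 2, and AAGATGG of YY1, TGANTCA of AP-1, CATTCC of TEAD and TATAAA in 1. With 20 windows these shares are too imprecise to set apart from those of all genes. The wider YY1 letters ANATGGC, added after the windows of Srsf3 and Hnrnpa2b1 had been seen, were in 3 windows (15.0%), against 13.9% of the start summits of all genes. The windows were rich in CpG, with a median observed to expected ratio of 0.969 (quartiles 0.910 and 1.07), against 0.810 (quartiles 0.637 and 0.968) at the start summits of all genes. Their median GC content was 65.2%, against 60.2%.

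**Figure D4:**
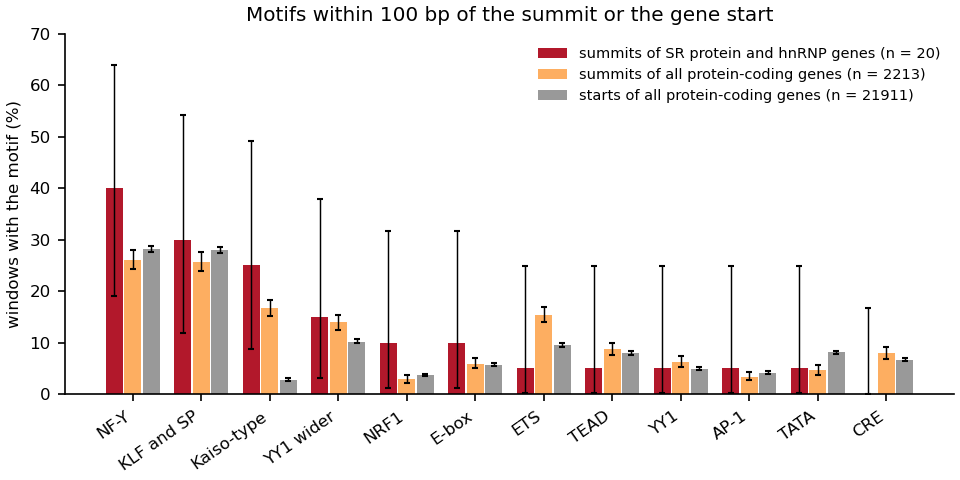
Bars give the percent of windows of 100 bp on each side that hold each motif on either strand, at the strongest start summits of the SR protein and hnRNP genes, at those of all protein-coding genes and at the starts of all protein-coding genes, with exact 95% binomial intervals. TCTCGCG, shown as Kaiso-type, is at 25%, 16.7% and 2.79% in this order, and the wide intervals of the 20 windows overlap the shares of the other start summits for all motifs shown.

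Other genes of the splicing machinery varied in how often EP300 lay at their starts. Of 16 hnRNP-type proteins under other symbols, 11 had a start summit (68.8%), against the 10.1% of all genes. They were led by Matr3, a nuclear matrix protein (137.0 in the optimal set, 61.0 in replicate 1 and 69.1 in replicate 2), and Tardbp (70.2). Of 21 SR-related splicing factors 8 had one (38.1%), led by Rbm39 (370.3 in the optimal set, rank 7), Luc7l2 (193.5) and Bclaf1 (81.3). Of 10 genes of nonsense-mediated decay, the pathway that removes the poison-exon transcripts made by many SR and hnRNP genes, 5 had one, led by Upf3a (183.0), Smg5 (156.5) and Upf2 (115.7). Of 32 core spliceosome genes 7 had one (21.9%), led by Eftud2 (84.9), Sf3b3 (79.4) and Snrpg (71.5). Of 8 kinases of SR proteins 1 had one, Clk3 (39.9), and of 29 tissue-restricted splicing regulators 1 had one (3.45%, interval 0.0873 to 17.8), Mbnl2 (28.8).

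**Figure D5:**
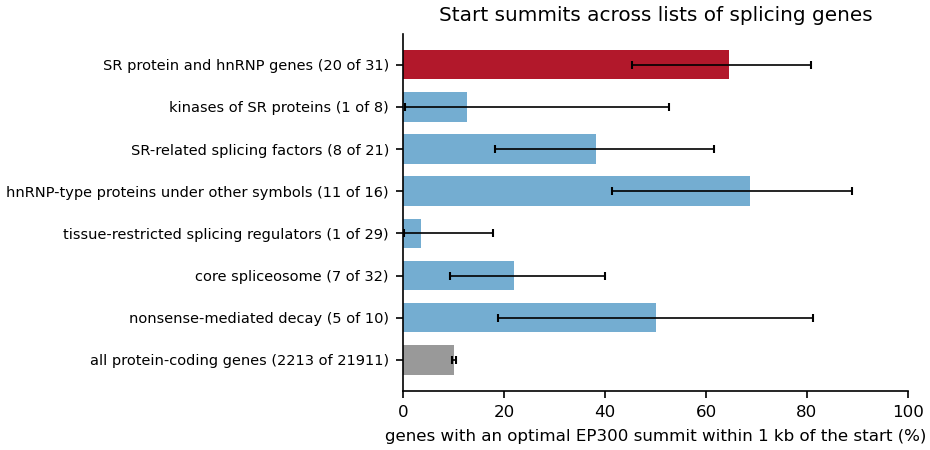
Bars give the percent of genes of each list with an optimal EP300 summit within 1 kb of the start, with exact 95% binomial intervals; the counts stand beside the names. The SR protein and hnRNP genes (64.5%) and the hnRNP-type proteins under other symbols (68.8%) have the longest bars, and the tissue-restricted regulators (3.45%) the shortest, below that of all protein-coding genes (10.1%).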

How the data were processed

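The authors deposited peak lists in narrowPeak layout on mm10, per the labels and the readme texts: 1 for each replicate, 1 for both replicates pooled, and 2 IDR sets made from these (optimal and conservative). The strength of a peak is the deposited signal value of the authors' peak caller. The deposited score columns were not used. The summit offset is deposited in bp from the peak start. Which caller and which aligner were used is not given in the sources used here. No reads were counted here, so intervals need no depth and cover counting error over genes or windows only.

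Summits were column 2 plus column 10, written 1-based. Of 7737 optimal peaks, 4 off the named chromosomes were left out. Genes came from GENCODE M21 (21951 protein-coding records, 21911 after leaving out mitochondrial genes and repeated symbols), and sequence from GRCm38.p6, the assembly behind mm10. All 41 RefSeq promoters of 29 of the 31 genes matched it. The start was the 5′ end of the gene record. The signal of a replicate at an optimal peak is that of its strongest peak with its summit inside; overlapping optimal peaks can share it. Features came from protein-coding transcripts.

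No test was run: there is 1 group of 2 libraries, and lists are described by counts beside all genes, with exact (Clopper-Pearson) 95% intervals. Summit assignment was tested on simulated data. Members, gene lists and motifs were chosen with earlier results of these data known; the wider YY1 letters and the 30-base windows printed were added after the summit windows had been seen. All genes of the families are named, the 10 with the strongest start summit in full, and up to 3 genes of each other list; genes of neighbouring starts were named after their values were seen. Alternatives were the other peak lists, each replicate alone, other windows and other starts. Python 3.11.15, pandas 2.3.3, scipy 1.17.1 and pysam 0.24.0 were used.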

Additional observations from a re-analysis of the deposited data

How the results depend on the processing

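The count of 20 genes with a start summit lay between 15 (500 bp window) and 22 under all 9 alternatives. It was 18 in the conservative set, where the genes were not all among the 20. The share of all genes was 8.91% with the 500 bp window and 9.92% in the conservative set. Under the 9 alternatives that share lay between 7.14% and 12.2%. With only the strongest peaks of replicate 2 the count at the start was 19, against 11.0% of all genes. With only those of replicate 1 it was 22, against 12.2%. In the same order the count in the gene body was 13 and 19, against 13.2% and 13.7% of all genes. The count within 50 kb was 25 and 25, against 37.9% and 39.0%, and the number of distinct summits was 64 and 68. The count within 50 kb lay between 21, with nearest starts only, and 29, at 100 kb. Over all genes the shares were 16.4% and 49.1% in the same order. Without the first 1 kb of the gene body, 2 genes in place of 15 had a body summit, against 7.57% in place of 12.1% of all genes. The 66 distinct summits fell to 39 in the 3868 strongest optimal peaks, to 38 with nearest starts only and to 37 within 10 kb; fewer peaks or a narrower window make these counts smaller by construction.

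The median rank of the strongest start summit, as a percent of its list, was 25.7 in the optimal set. It was 19.0 in the conservative set, 38.8 in the strongest pooled peaks, 16.8 with replicate 2 alone and 24.0 with replicate 1 alone; the cause was not tested. Within 50 bp of the summit no window held the NRF1 or the YY1 motif (0%, against 10% and 5.0% within 100 bp), and TCTCGCG was in 15.0% of the windows, against 25% within 100 bp. The number of summits within 50 kb of a single gene changed by over 1.5 times for 10 to 15 of the 31 genes with another peak list or nearest starts, and for 1 with any coding transcript start, so counts per gene are less stable than counts over the families. No paired analysis was possible because the series has 1 group. The lists hold no read counts, so a gene without an optimal summit is not shown to lack EP300.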
